A study of Mus musculus with 5 samples.

Results

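Genes of the mitochondrial ribosome and of mitochondrial protein import were followed in the lungs of bleomycin-treated mice. They were taken by name: every symbol of the array's annotation that starts with Mrpl or Mrps (proteins of the large and small subunit of the mitochondrial ribosome), Timm (translocases of the inner membrane) or Tomm (translocases of the outer membrane) followed by a digit. The annotation held 91 such symbols on 96 features, and 80 of them had values on at least 4 of the 5 arrays, among 10081 genes and unnamed features tested in all. These 80 comprised 38 large subunit, 24 small subunit, 13 Timm and 5 Tomm genes.

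Each of the 5 arrays set amplified lung RNA of 1 bleomycin-treated 129svJ mouse, an inbred strain, against 1 pool of amplified lung RNA from control mice of that strain. Bleomycin is a DNA-cleaving antibiotic used to injure the lung. The labels name no dose, route, time, age, sex or pool size, so the 5 mice form 1 group and the pool is its only control. The values are log ratios, read here as log2, and the log base is not stated.

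The labels do not say which dye each RNA carried, so it is not settled which RNA is the numerator. Values are therefore given as below or above 0, without saying whether the mouse or the pool held more RNA. Pearson's r for pairs of mice, over 8210 genes, ran from 0.732 to 0.861, so no array opposed the others. These pairs share the pool, and genes are not independent replicates. A ratio gives no level, so the tissue could not be checked against the abundance of lung markers. In whole lung, fewer cells of a type and less RNA per cell cannot be told apart.

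Nearly all mitochondrial proteins are encoded in the nucleus, made in the cytosol and threaded through the membranes by the TOM and TIM complexes. TOM receptors recognise the precursors and pass them through a common pore. TIM23 carries precursors with a cleavable presequence into the matrix, TIM22 inserts carrier proteins into the inner membrane, and small Tim chaperones ferry hydrophobic precursors between the membranes. The mitochondrial ribosome translates the few proteins, all subunits of the respiratory chain and ATP synthase, that the mitochondrial genome encodes. Its own proteins are all imported, so both groups of genes serve the supply of the respiratory chain, on which tissues with a high oxygen demand depend.

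Promoter sequence was not used to choose the members. Each of the YY1, GABPA and NRF-1 motifs, taken singly, was absent from most member windows. RefSeq promoters (GRCm38.p6; 250 bases before to 50 after the start site) were found for 72 of the 80 members, in 79 windows. The windows were searched on both strands for motifs of 4 regulators of such genes, and each motif was counted separately where matches overlapped. The YY1 motif, AANATGGC, occurred in 24.1% of member windows, against 6.05% of all 32851 promoters and 7.03% of the promoters of tested genes. The GABPA motif, CCGGAAGT, occurred in 16.5%, against 3.89% and 6.71%. The NRF-1 motif, GCGCANGCG, occurred in 15.2%, against 6.25% and 11%. The SP1 motif, GGGCGG, occurred in 53.2%, against 35.7% of all promoters and 56.1% of those of tested genes. Of the 19 YY1 matches in member windows, 14 lay after the start site (73.7%), against 43.2% of the matches in promoters of tested genes and 32.1% in all promoters. The YY1 letters contain ATG, and the place of the start codons was not examined.

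The windows below run from 250 bases before to 30 after the start site, with matches of these motifs in capitals. The first 5 belong to members that stayed past the threshold, below 0, with the pool counted as 1 control mouse (explained with the counts). Mrpl32 and Mrpl27, also below 0, show the NRF-1, YY1 and GABPA letters. Mrpl50, the member farthest above 0, held none of the 4 motifs, but this did not hold for the members above 0 as a group. At least 1 of the YY1, GABPA and NRF-1 motifs occurred in 62.5% of the 8 windows of members past the threshold above 0. Below 0 it was 53.7% of 41 windows. GABPA letters occurred in 37.5% and 19.5%, and the SP1 motif, the other way, in 25% and 65.9%. These differences were not tested.
Mrpl43 (chr19:45006413-45006692, minus strand): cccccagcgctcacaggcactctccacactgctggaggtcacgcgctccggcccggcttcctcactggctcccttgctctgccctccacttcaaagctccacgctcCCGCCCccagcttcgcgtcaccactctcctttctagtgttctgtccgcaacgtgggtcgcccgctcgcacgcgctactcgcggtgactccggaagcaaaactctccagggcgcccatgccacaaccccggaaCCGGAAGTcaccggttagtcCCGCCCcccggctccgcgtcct
Mrpl46 (chr7:78783060-78783339, minus strand): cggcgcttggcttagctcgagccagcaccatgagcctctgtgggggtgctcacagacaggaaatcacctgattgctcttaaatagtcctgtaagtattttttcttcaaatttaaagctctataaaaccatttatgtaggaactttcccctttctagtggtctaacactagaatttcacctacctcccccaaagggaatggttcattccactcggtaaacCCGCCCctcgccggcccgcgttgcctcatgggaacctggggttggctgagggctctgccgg
Timm10b (chr7:105640195-105640474, plus strand): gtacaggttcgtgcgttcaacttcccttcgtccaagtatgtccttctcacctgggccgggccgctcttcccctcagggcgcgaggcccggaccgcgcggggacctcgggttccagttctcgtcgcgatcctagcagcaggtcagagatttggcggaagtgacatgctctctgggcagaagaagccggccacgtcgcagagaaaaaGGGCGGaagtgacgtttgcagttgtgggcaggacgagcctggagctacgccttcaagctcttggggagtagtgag
Timm8b (chr9:50603651-50603930, plus strand): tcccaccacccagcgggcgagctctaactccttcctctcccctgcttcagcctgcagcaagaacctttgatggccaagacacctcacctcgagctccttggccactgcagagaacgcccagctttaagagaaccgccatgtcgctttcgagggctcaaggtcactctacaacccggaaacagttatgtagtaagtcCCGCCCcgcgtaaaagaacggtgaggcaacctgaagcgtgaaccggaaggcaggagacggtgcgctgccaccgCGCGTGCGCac
Timm8a1 (chrX:134541641-134541920, minus strand): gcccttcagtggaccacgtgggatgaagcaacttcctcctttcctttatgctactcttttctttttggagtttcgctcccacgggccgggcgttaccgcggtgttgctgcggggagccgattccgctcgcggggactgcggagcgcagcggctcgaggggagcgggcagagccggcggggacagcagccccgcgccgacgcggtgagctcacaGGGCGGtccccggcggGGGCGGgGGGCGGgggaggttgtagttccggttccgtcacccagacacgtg
Mrpl32 (chr13:14613008-14613287, minus strand): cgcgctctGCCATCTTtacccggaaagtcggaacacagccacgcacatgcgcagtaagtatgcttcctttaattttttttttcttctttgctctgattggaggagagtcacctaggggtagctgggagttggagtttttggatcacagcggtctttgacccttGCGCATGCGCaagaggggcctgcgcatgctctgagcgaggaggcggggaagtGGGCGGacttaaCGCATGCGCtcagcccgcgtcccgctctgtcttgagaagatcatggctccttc
Mrpl27 (chr11:94653541-94653820, plus strand): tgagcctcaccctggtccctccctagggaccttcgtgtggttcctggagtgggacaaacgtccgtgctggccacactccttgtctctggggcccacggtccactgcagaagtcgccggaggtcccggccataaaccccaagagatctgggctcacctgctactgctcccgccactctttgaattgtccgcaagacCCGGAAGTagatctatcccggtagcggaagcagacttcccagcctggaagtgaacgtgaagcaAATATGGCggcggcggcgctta
Mrpl50 (chr4:49521054-49521333, minus strand): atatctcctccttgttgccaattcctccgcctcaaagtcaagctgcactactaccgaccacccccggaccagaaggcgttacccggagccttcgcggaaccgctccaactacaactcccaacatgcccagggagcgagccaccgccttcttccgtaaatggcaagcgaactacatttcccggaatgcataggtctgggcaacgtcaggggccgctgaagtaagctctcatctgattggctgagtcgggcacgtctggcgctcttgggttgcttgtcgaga

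Mitochondrial ribosome and import genes lay mostly below 0. Of the 80 members, 42 were past the threshold below 0, 8 above 0, and 30 did not pass. The test was limma's moderated test of the mean log2 ratio against 0 (two-sided, Benjamini-Hochberg adjustment over all 10081, adjusted p under 0.05). Over all genes tested 49.6% passed, 23.9% below 0 and 25.8% above 0, against 52.5% of the members below 0 and 10% above. The median of the members' mean log2 ratios was −0.22, against −0.0066 for all genes. Most differences were small, among the members as among all genes. The median size among members past the threshold was a log2 ratio of 0.42, against 0.44 for all genes past it. Of these 50 members 4 reached 2-fold, against 564 of all 5002 genes past the threshold.

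Agreement among the mice was not read as particular to the members: every measured array lay on 1 side for 52 of the 80, against 57.3% of all genes. The median over the members was −0.20, −0.23, −0.25, −0.15 and −0.18 in mice 1 to 5, so it was below 0 on every array. Across the 64 members measured in all mice, Pearson's r between mice ran from 0.661 for mice 1 and 4 to 0.888 for mice 2 and 3. Mouse 1 held the lowest value for 22 of the 64 members and mouse 4 the highest for 20. The median SD between mice was 0.17 for the members and 0.16 for all genes.

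This test gives the pool no error of its own. With the pool counted as 1 control mouse that varies as the bleomycin mice do, 6 of the 80 members passed, all below 0. In that setting 5.09% of all genes passed, 2.11% below 0 and 2.98% above 0. The 6 were Mrpl43, Mrpl46, Mrpl54, Timm10b, Timm8b and Timm8a1, and no small subunit or Tomm gene was among them. Tested against a 1.2-fold difference in place of 0, 18 members passed, 14 below 0 and 4 above. Over all genes 18.3% passed this test, 8.04% below 0 and 10.3% above. In this test members passed more often below 0 than above, and all genes more often above 0 than below.

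The lowest means were those of large subunit genes, with Timm10b among them. Of 38, 22 were past the threshold below 0 and 3 above. Mrpl43, a protein found in mitochondrial but not bacterial ribosomes, stood at −1.32, −1.08, −1.18, −1.34 and −1.73 in mice 1 to 5. All 5 mice were below −1 and their spread was narrow beside the mean of −1.33 ± 0.25 (SD, n = 5), a 2.51-fold difference (adjusted p = 8.24e-05; with the pool counted as 1 mouse, adjusted p = 0.0266). Mrpl54, another such protein, stood at −1.34, −0.93, −1.21, −0.97 and −0.73 in mice 1 to 5, mean −1.04 ± 0.24 (adjusted p = 0.000193). Mouse 5 was nearest to 0 there, and again for Mrpl52, which stood at −1.27, −1.05, −0.94, −0.83 and −0.57 in mice 1 to 5, mean −0.93 ± 0.26 (adjusted p = 0.000397). Mrpl46 stood at −0.81, −0.61, −0.75, −0.77 and −0.61 in mice 1 to 5, mean −0.71 ± 0.094 (adjusted p = 0.000109), the smallest SD among members with a mean beyond 0.5. Mrpl1, counterpart of the bacterial stalk protein L1, had the lowest mean, −1.503 ± 0.82 (SD, n = 4), but also the widest spread of all members. Its values were −0.60, −1.25, −2.57 and −1.59 in mice 1, 3, 4 and 5, with mouse 4 far below mouse 1, and it missed the threshold with a plain one-sample test (adjusted p = 0.0746).

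Further large subunit genes below 0 showed the same side in every mouse at smaller sizes. Mrpl32, which the inner membrane m-AAA protease cleaves before it joins the ribosome, stood at −0.84, −0.68, −0.82, −0.58 and −1.04 in mice 1 to 5, mean −0.79 ± 0.18 (adjusted p = 0.00024). Mrpl2, a protein near the catalytic centre, averaged −0.48 ± 0.15, and Mrpl37 averaged −0.37 ± 0.091. Mrpl3 and Mrpl44, both known from inherited cardiomyopathy, averaged −0.30 ± 0.15 and −0.23 ± 0.10. A second feature of Mrpl3, measured on only 3 arrays, stood at 0.084, 0.064 and 0.077 in mice 1, 3 and 4, above 0 where the first was below, and Mrpl3 missed the threshold when it was averaged in (adjusted p = 0.0614). The other 11 below 0 were Mrpl21, Mrpl23, Mrpl30, Mrpl42, Mrpl20, Mrpl36, Mrpl34, Mrpl27, Mrpl40, Mrpl15 and Mrpl18, with means from −0.51 to −0.17. Of these, Mrpl15 lost the call without mouse 2, 4 or 5 (adjusted p from 0.0569 to 0.0634), Mrpl18 without mouse 2, 3 or 5 (adjusted p from 0.0522 to 0.0736) and Mrpl20 without mouse 3, 4 or 5 (adjusted p from 0.0557 to 0.0912). Mrpl49 alone of all called members had a mouse on the other side: it stood at −0.35, −0.40, −0.54, −0.14 and 0.036 in mice 1 to 5 and lost the call without mouse 1, 2 or 3 (adjusted p from 0.084 to 0.107) and with a plain one-sample test (adjusted p = 0.0993).

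Only 3 large subunit genes were past the threshold above 0. Mrpl50 stood at 0.30, 0.79, 0.63, 0.61 and 0.69 in mice 1 to 5, mean 0.61 ± 0.18 (adjusted p = 0.000803). Mrpl33, counterpart of a small protein of the bacterial ribosome, stood at 0.71, 0.55, 0.67, 0.41 and 0.56 in mice 1 to 5, mean 0.58 ± 0.12 (adjusted p = 0.000353). Mrpl9, counterpart of bacterial L9, stood at 0.39, 0.83, 0.78, 0.69 and 0.26 in mice 1 to 5, mean 0.59 ± 0.25 (adjusted p = 0.00239). No mouse was below 0 for any of the 3, so none of their values could overlap those of Mrpl43 or Mrpl54, which were below 0 in every mouse. None of the 3 passed with the pool counted as 1 mouse. The 13 that did not pass had means from −0.18 for Mrpl48 to 0.23 for Mrpl16, and the widest spread among them was that of Mrpl11 at 0.15 ± 0.43.

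**Figure D1:**
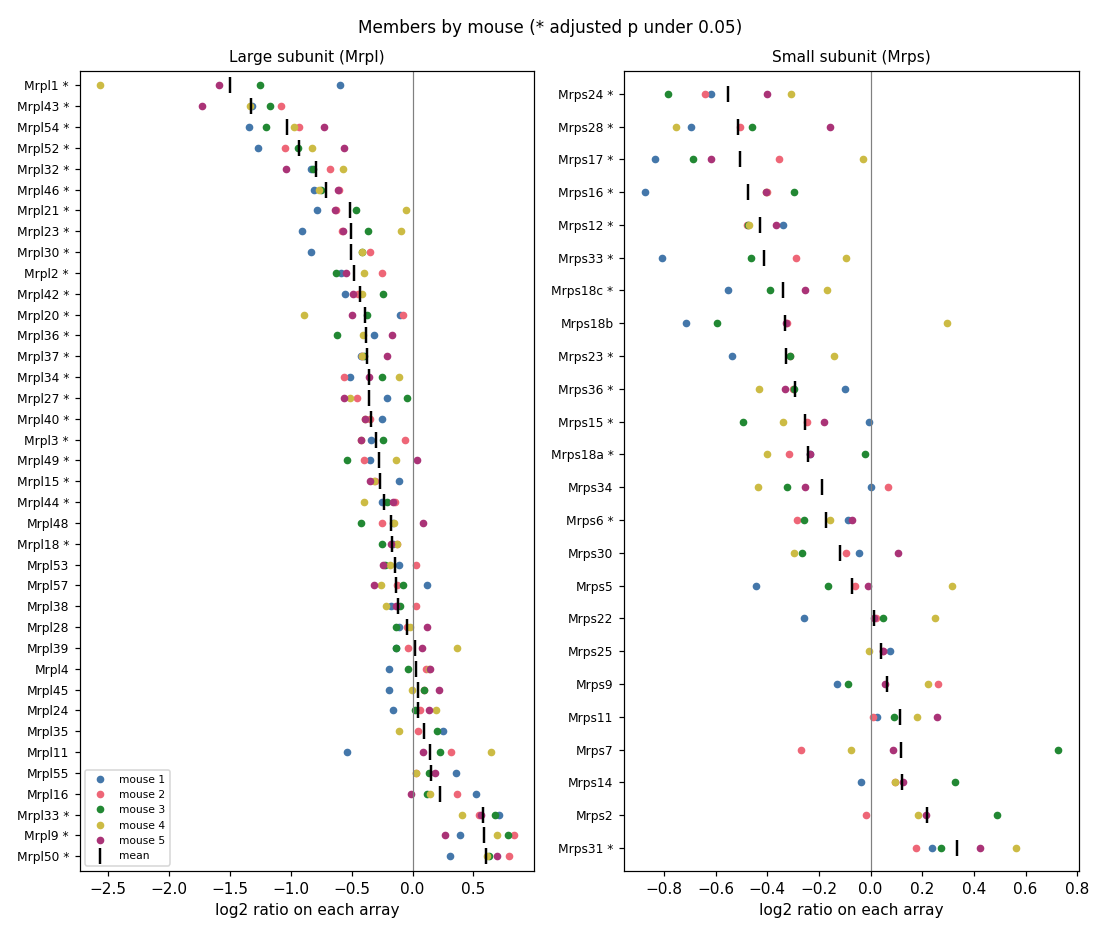
Log2 ratio on each array (points, coloured by mouse) and mean (black bars) for the 38 large and 24 small subunit genes, with an asterisk at those past the threshold. In the large subunit 22 marked genes lie below 0 and 3 above, in the small subunit 12 and 1, and Mrpl1 has the widest spread.

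Small subunit genes lay below 0 as well, over a narrower range. Of 24, 12 were past the threshold below 0, 1 above, and 11 did not pass. Leaving out mouse 2 or mouse 3 lowered the 13 calls to 8, and so did a plain one-sample test. Mrps24 had the lowest mean and stood at −0.62, −0.64, −0.78, −0.31 and −0.40 in mice 1 to 5, mean −0.55 ± 0.19 (SD, n = 5) (adjusted p = 0.00137). Mrps28 stood at −0.69, −0.51, −0.46, −0.75 and −0.16 in mice 1 to 5, mean −0.52 ± 0.23 (adjusted p = 0.00337). Every mouse was below 0 for both genes, with mouse 4 nearest to 0 for the first and mouse 5 for the second. Mrps17 stood at −0.83, −0.35, −0.69, −0.031 and −0.62 in mice 1 to 5, mean −0.50 ± 0.32 (adjusted p = 0.0102), so that mouse 4 was close to 0, and its call was lost with a plain one-sample test (adjusted p = 0.057). Mrps16, whose loss causes a fatal respiratory chain defect in humans, stood at −0.87, −0.40, −0.29, −0.40 and −0.41 in mice 1 to 5, mean −0.48 ± 0.23 (adjusted p = 0.00426), with mouse 1 apart from the other mice. Mrps12, counterpart of the bacterial protein that guards decoding accuracy, had the narrowest spread of those called, at −0.43 ± 0.068 (adjusted p = 0.000607).

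The 1 small subunit gene above 0, Mrps31, stood at 0.24, 0.17, 0.27, 0.56 and 0.42 in mice 1 to 5, mean 0.33 ± 0.16 (adjusted p = 0.00671). It was above 0 in every mouse, and with the pool counted as 1 mouse it did not pass (adjusted p = 0.313). The remaining genes past the threshold below 0 were Mrps33, Mrps18c, Mrps23, Mrps36, Mrps15, Mrps18a and Mrps6, with means from −0.41 to −0.17. All of these but Mrps36 lost the call without at least 1 mouse: Mrps18c without mouse 3, Mrps23 without 2 or 3, Mrps33 without 1, 2 or 3, Mrps6 without 2, 3 or 4, Mrps18a without 2, 4 or 5, and Mrps15 without any but mouse 1. Adjusted p then lay between 0.0504 and 0.114. Mrps6 also lost it without centring (adjusted p = 0.0503). A second feature of Mrps15, measured on only 2 arrays and not kept, stood at −0.01 and −0.024 in mice 2 and 5. The kept feature stood at −0.245 and −0.179 in those mice. The names do not all match the present assignment: Mrps18a and Mrps30 belong to the large subunit, and Mrps36 is a subunit of the 2-oxoglutarate dehydrogenase complex. Mrps18a averaged −0.24 ± 0.14, Mrps36 −0.29 ± 0.12 and Mrps30, which did not pass, −0.12 ± 0.17. Mrps18b averaged −0.33 ± 0.39 and did not pass: mouse 4 stood at 0.30 and the other mice between −0.71 and −0.32. Mrps7 had the widest spread in the small subunit, at −0.27, 0.73, −0.077 and 0.086 in mice 2, 3, 4 and 5.

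In the import machinery the measured small Tim chaperones all lay below 0, and the channel complexes on both sides. All 5 measured small Tims, Timm8a1, Timm8b, Timm9, Timm10b and Timm13, were past the threshold below 0, with every measured array below 0 once features were averaged, and a median of −0.64. Of the 6 TIM23 genes 1 was below 0 and 2 above, and of the 2 TIM22 genes measured, 1 was above. This grouping by complex was made with the values known, so it describes these genes and tests nothing. Over all 13 Timm genes, 6 were past the threshold below 0 and 3 above.

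Timm10b, the small Tim bound to the TIM22 complex, stood at −1.24, −1.001, −1.14, −0.86 and −1.29 in mice 1 to 5, mean −1.11 ± 0.18 (SD, n = 5), a 2.15-fold difference (adjusted p = 6.6e-05; with the pool counted as 1 mouse, adjusted p = 0.0225). Timm8b stood at −0.94, −0.59, −0.64, −0.71 and −0.80 in mice 1 to 5, mean −0.73 ± 0.14 (adjusted p = 0.000183). Timm8a1, counterpart of the human protein lost in deafness-dystonia syndrome, stood at −0.57, −0.55, −0.82, −0.61 and −0.66 in mice 1 to 5, mean −0.64 ± 0.11 (adjusted p = 0.000191). All 3 had every mouse below −0.5. Timm13, the partner of the Timm8 proteins, was closer to 0, at −0.13, −0.32, −0.10 and −0.23 in mice 2, 3, 4 and 5, mean −0.20 ± 0.1 (adjusted p = 0.0438), and lost the call without mouse 2, 3, 4 or 5 (adjusted p from 0.0624 to 0.142), with a plain one-sample test (adjusted p = 0.0654) and without centring (adjusted p = 0.059). Timm9, whose complex with Timm10 carries precursors of carrier proteins, was on 2 features that averaged −0.40 ± 0.23 (adjusted p = 0.0091). One feature stood at −0.95, −0.42, −0.57, −0.35 and −0.38 in mice 1 to 5 (adjusted p = 0.00353) and the other at −0.56, 0.02, −0.18, −0.057 and −0.56 in mice 1 to 5 (adjusted p = 0.0673), so only the former passed alone. Timm10 itself had values on 3 arrays only, −0.63, −0.22 and −0.059 in mice 3, 4 and 5, and was not tested.

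The TIM23 genes fell on both sides. Timm23, the channel, stood at −0.24, −0.42, −1.03, −0.68 and −0.77 in mice 1 to 5, mean −0.63 ± 0.31 (SD, n = 5) (adjusted p = 0.00363), below 0 in all mice, with mouse 3 lowest. Timm44, which anchors the import motor at the channel, stood at 0.25, 0.29, 0.39, 0.23 and 0.34 in mice 1 to 5, mean 0.30 ± 0.067 (adjusted p = 0.00264). Timm17a, a channel partner, stood at 0.093, 0.33, 0.13, 0.41 and 0.052 in mice 1 to 5, mean 0.20 ± 0.16 (adjusted p = 0.0447). Timm23 was below 0 and Timm44 above 0 in every mouse, so their values could not overlap. The call of Timm17a was lost without mouse 1, 2, 3 or 4 (adjusted p from 0.0509 to 0.133), with a plain one-sample test (adjusted p = 0.0879) and with arrays scaled to 1 spread (adjusted p = 0.0505). Timm17b, its paralogue, averaged −0.075 ± 0.18, the receptor Timm50 0.082 ± 0.13 and Timm21 −0.18 ± 0.099, and none of these passed. In TIM22, the channel Timm22 averaged −0.13 ± 0.098 without passing, and Timm29 stood at 0.24, 0.19, 0.13, 0.47 and 0.29 in mice 1 to 5, mean 0.26 ± 0.13 (adjusted p = 0.0114), above 0 in every mouse.

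The outer membrane receptors stood on opposite sides of 0. Tomm20, the receptor for presequences, stood at −1.401, −0.67, −0.64, −0.64 and −0.77 in mice 1 to 5, mean −0.83 ± 0.33 (SD, n = 5) (adjusted p = 0.00141). Mouse 1 was far below the others, and all mice were below −0.6. Tomm70a, the receptor for carrier proteins, stood at 0.39, 0.44, 0.73, 0.58 and 0.31 in mice 1 to 5, mean 0.49 ± 0.16 (adjusted p = 0.00143), above 0 in all mice. These values for Tomm70a average 2 features that disagreed in size, and in mice 1 and 5 also in side. One stood at 0.81, 0.48, 1.12, 1.04 and 0.77 in mice 1 to 5 (adjusted p = 0.000521), the other at −0.025, 0.40, 0.33, 0.11 and −0.15 in mice 1 to 5 (adjusted p = 0.252). Only the former passed alone. Tomm7, a small subunit of the complex, stood at −0.059, −0.45, −0.40, −0.26 and −0.18 in mice 1 to 5, mean −0.27 ± 0.16 (adjusted p = 0.0167), and lost the call without mouse 2 or 3 (adjusted p from 0.0565 to 0.0566) and with a plain one-sample test (adjusted p = 0.0515). Tomm6 and Tomm20l, a paralogue of Tomm20, averaged −0.044 ± 0.16 and 0.073 ± 0.27 and did not pass. None of the Tomm genes passed with the pool counted as 1 mouse.

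**Figure D2:**
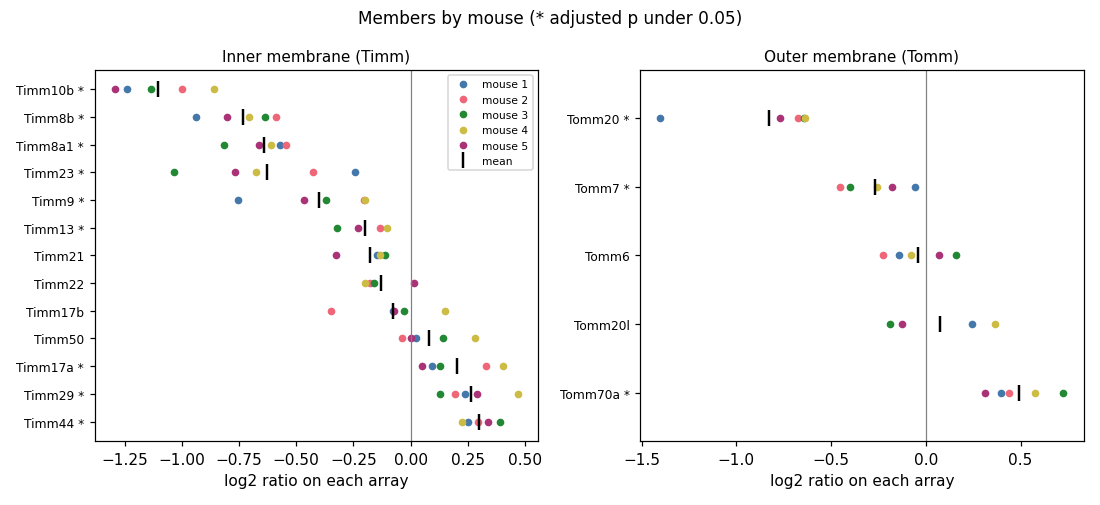
Log2 ratio on each array (points, coloured by mouse) and mean (black bars) for the 13 Timm and 5 Tomm genes, with an asterisk at those past the threshold. The small Tims Timm10b, Timm8b and Timm8a1 lie below −0.5 in every mouse, and Tomm20 and Tomm70a lie on opposite sides of 0.

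Of the 91 symbols, 11 had values on fewer than 4 arrays. Just outside the limit stood Tomm40, the outer membrane pore, at 0.002, 0.13 and −0.039 in mice 2, 3 and 4, and Timm10, given above. Just inside it, 16 members had values on 4 arrays, with means from −1.503 for Mrpl1 to 0.22 for Mrps2. Mrps21 and Mrpl51 had values on 2 arrays, all below 0, and Tomm34, Mrpl10 and Mrps35 on 1. Mrpl13, Mrpl17, Mrpl19 and Mrps10 had no value on any array.

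Genes for other steps of mitochondrial gene expression lay more often above 0. Of 28 measured genes for other mitochondrial translation factors, tRNA synthetases and maintenance of mitochondrial DNA and RNA, 12 were past the threshold above 0 and 2 below, with a median of 0.038. Mterf3, which binds mitochondrial DNA and rRNA, stood at 1.06, 1.02, 1.31, 1.16 and 1.21 in mice 1 to 5, mean 1.15 ± 0.12 (SD, n = 5) (adjusted p = 2.88e-05), and was the only one of the 28 to pass with the pool counted as 1 mouse (adjusted p = 0.012). Nsun4, which methylates the small subunit rRNA, averaged 0.74 ± 0.18 (adjusted p = 0.000313) and Polg, the polymerase of mitochondrial DNA, 0.73 ± 0.29 (adjusted p = 0.0015). Below 0 were Fastkd2, an RNA-binding protein of ribosome assembly, at −0.41 ± 0.10 (adjusted p = 0.00117) and Chchd1 at −0.30 ± 0.20 (adjusted p = 0.0182), which lost the call without mouse 2 or 3 (adjusted p from 0.0512 to 0.0584). Chchd1 is itself a small subunit protein. Dap3 and Ptcd3, singled out because they too are small subunit proteins without a Mrps name, averaged 0.28 ± 0.19 and −0.067 ± 0.14. Dap3 passed above 0 (adjusted p = 0.0206) but not without mouse 1 or 5 (adjusted p from 0.0533 to 0.0558), and Ptcd3 did not pass (adjusted p = 0.42).

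The other import, folding and processing genes divided evenly: 9 of 26 were past the threshold below 0 and 8 above, with a median of 0.0072. Without mouse 5, or with a plain one-sample test, 11 passed. Lowest were Dnajc19, a co-chaperone of the TIM23 motor, at −0.62 ± 0.095 (adjusted p = 0.000191) and the matrix protease Clpp at −0.58 ± 0.29 (adjusted p = 0.00408). The prohibitin Phb followed at −0.41, −0.12, 0.045, −1.08 and −0.88 in mice 1 to 5, mean −0.49 ± 0.48 (adjusted p = 0.047), with mouse 3 above 0, and lost the call without mouse 1, 2, 4 or 5 (adjusted p from 0.0508 to 0.14). Highest were Mtx2 and Samm50, which insert barrel proteins into the outer membrane, at 0.86 ± 0.27 and 0.73 ± 0.30, and the chaperone Trap1 at 0.73 ± 0.38. Their values were adjusted p = 0.000649, 0.00174 and 0.00453. Dnajc19 alone of the 26 passed with the pool counted as 1 mouse (adjusted p = 0.0493).

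Genes of the matrix enzymes past the threshold were nearly all above 0. Of 19 genes of the tricarboxylic acid cycle, pyruvate entry and the outer membrane pore, 10 were past the threshold above 0 and 1 below, with a median of 0.28. Succinate dehydrogenase genes, which also serve the cycle, were placed with the respiratory chain and are not among the 19. The lipoamide dehydrogenase Dld averaged 1.48 ± 0.70, the outer membrane pore gene Vdac1 1.12 ± 0.26 and the pyruvate dehydrogenase subunit Pdhb 0.82 ± 0.20, with adjusted p = 0.00235, 0.000176 and 0.0003. The other pore genes, Vdac2 and Vdac3, had means below 0, −0.17 ± 0.26 (adjusted p = 0.185) and −0.23 ± 0.26 (adjusted p = 0.0876), and did not pass. Vdac1 alone of the 19 passed with the pool counted as 1 mouse (adjusted p = 0.0468). Citrate synthase, Cs, the 1 gene below 0, stood at 0.10, −0.47, −0.44, −0.44 and −0.44 in mice 1 to 5, mean −0.34 ± 0.25 (adjusted p = 0.0213), with mouse 1 above 0, and it lost the call without mouse 2, 3, 4 or 5 (adjusted p from 0.0633 to 0.0705).

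The regulators whose motifs were searched stood on both sides of 0. Gabpa stood at 1.499, 1.77, 1.61, 1.47 and 1.55 in mice 1 to 5, mean 1.58 ± 0.12 (SD, n = 5) (adjusted p = 1.59e-05), and its partner Gabpb1 averaged 0.71 ± 0.26 (adjusted p = 0.0012). Yy1 stood at 1.48, 1.87, 1.495, 1.69 and 1.596 in mice 1 to 5, mean 1.63 ± 0.16 (adjusted p = 2.16e-05). Gabpa and Yy1 were above 1.3 in every mouse. Nrf1, which encodes NRF-1, averaged 0.31 ± 0.11 (adjusted p = 0.00488). Sp1 averaged −1.06 ± 0.29 (adjusted p = 0.000334) and Esrra, a nuclear receptor of mitochondrial gene programmes, −0.88 ± 0.12 (adjusted p = 7.29e-05). With the pool counted as 1 mouse, Gabpa and Yy1 passed above 0 and Esrra below 0. Of the 12 measured genes in the list of regulators, 7 were past the threshold above 0 and 2 below. Whether the level of any of them bears on the members was not tested.

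**Figure D3:**
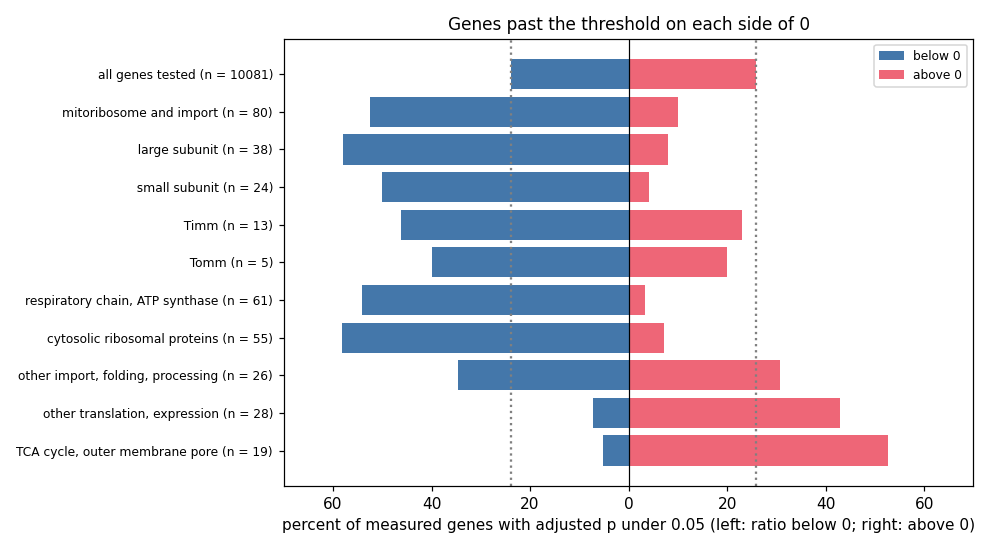
Percent of measured genes past the threshold below 0 (left, blue) and above 0 (right, red) for all genes, the members and their 4 groups, and other lists, with dotted lines at the shares over all genes. The members reach 52.5% below and 10% above 0, and in the other translation list and the list of matrix enzymes and pore genes more genes pass above 0 than below.

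The respiratory chain and the cytosolic ribosome, taken for comparison, also lay mostly below 0. Of 61 respiratory chain and ATP synthase genes, 33 were past the threshold below 0 and 2 above, with a median of −0.37. Of 55 cytosolic ribosomal proteins, 32 were below and 4 above, with a median of −0.37. The medians of these sets ranged over the mice from −0.54 to −0.12 and from −0.50 to −0.28, against −0.25 to −0.15 for the members. No test of the difference between the sets was made.

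Some markers of cell types also passed the threshold, as did 49.6% of all genes, 23.9% below 0 and 25.8% above. All 8 macrophage markers passed, 6 below 0 and 2 above, with medians from −1.98 in mouse 1 to −0.68 in mouse 3. Of 4 markers of dividing cells 3 passed below 0, with medians from −1.27 to −0.69, and all 4 endothelial markers passed above 0, with medians from 1.14 to 1.79. Of 11 skeletal muscle markers 9 passed below 0, and their medians ran from −3.89 in mouse 1 to −0.17 in mouse 3, while the members' median in those mice was −0.20 and −0.25. Of 5 type 2 alveolar markers 1 passed, above 0, of 5 club and ciliated markers 1 below and 2 above, of 5 neutrophil markers 2 below, and of 5 T and B cell markers 1 below. All 3 cardiac markers and 2 of 4 brown fat markers passed above 0. The part of these cell types in the members' values was not tested.

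Many members share their start region with another gene. Of the 72 members with a RefSeq promoter, 25 (34.7%) had a start site of another gene on the opposite strand at most 1000 bases upstream, against 17.4% of 7189 tested genes and 12.3% of all 27025 genes with a promoter entry. The neighbour was measured in 14 such pairs. In 6 of them both genes were past the threshold, in each case on the same side of 0. Over all 237 measured head-to-head pairs, both genes were past the threshold in 70, and 37 of these 70 (52.9%) lay on the same side. Of the 50 members past the threshold 42 lay below 0, and whether the pairs agree in side more often than other genes was not tested.

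The 6 pairs joined members to genes of other functions. Mrpl32 (−0.79 ± 0.18) lies beside Psma2, a proteasome subunit, at −1.16 ± 0.54, and Timm23 (−0.63 ± 0.31) beside Parg, which degrades poly(ADP-ribose), at −0.61 ± 0.1. Timm8b (−0.73 ± 0.14) lies beside Sdhd, a subunit of respiratory complex II, at −0.26 ± 0.17. Mrpl37 (−0.37 ± 0.091) lies beside Cyb5rl at −0.77 ± 0.27, and Mrpl49 (−0.28 ± 0.23) beside Fau, which encodes a cytosolic ribosomal protein, at −0.43 ± 0.26. Mrpl50 (0.61 ± 0.18), above 0, lies beside the zinc finger gene Zfp189 at 0.32 ± 0.10. The 2 members that share a start region with each other had means on opposite sides of 0, a difference not tested: Mrpl46 stood at −0.71 ± 0.094 and Mrps11 at 0.026, 0.011, 0.091, 0.18 and 0.26 in mice 1 to 5, mean 0.11 ± 0.10 (adjusted p = 0.136), above 0 in every mouse but not past the threshold. Mrps12 and the mitochondrial seryl-tRNA synthetase Sars2 stood at −0.43 ± 0.068 and −0.13 ± 0.16, and only the former passed.

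**Figure D4:**
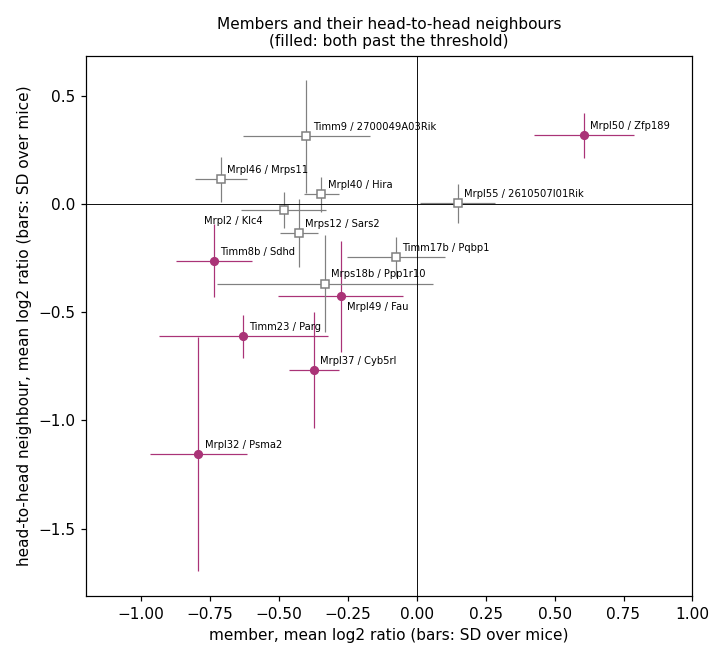
Mean log2 ratio of each member (x axis) against that of its measured head-to-head neighbour (y axis) for 14 pairs, with bars for the SD over mice. The 6 pairs with both genes past the threshold (filled) lie on the same side of 0, 5 below and Mrpl50 with Zfp189 above, whereas Mrpl46 and Mrps11 lie on opposite sides.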

How the data were processed

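The deposited values are 1 log2 ratio per feature and array, taken as log2 because the sources name no base; if the logarithm were natural, every fold would be larger. The authors' normalization is not stated; the deposited medians by array, 0.011 to 0.026, lie near 0. Of 17280 features, 10702 with values on at least 4 of 5 arrays were kept, each array was centred on its median, and features of 1 symbol were averaged, which gave 10081 genes and unnamed features. The RefSeq table changed 0 symbols. The test was an intercept-only limma fit (version 3.58.1, R 4.3.3; empirical Bayes, two-sided, Benjamini-Hochberg), checked on simulated data. The simulated arrays held no error shared through the pool and no dye bias, so the check does not cover either. The 5 mice are separate animals per the labels. An exact sign-flip test cannot go below p = 0.0625, so p-values rest on the model, with precision limited to what 5 arrays give. No dye swap is recorded, so a gene's dye bias stays in its ratio.

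Members and lists were chosen with earlier results of these data known. Values by mouse are given for the 4 members farthest from 0 on each side in each group among those past the threshold with all arrays on 1 side, those passing with the pool counted as 1 mouse, those on several features and those called with arrays on both sides. Of other lists, the 3 genes farthest from 0 on each side that passed are named, most by mean. Further genes were chosen after their values were seen. Alternatives varied the filter, centring, scaling, averaging, symbols, moderation, the pool's spread, the required size and the mice.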

Additional observations from a re-analysis of the deposited data

Results flagged for a closer look

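In 6 of 108 results examined, 1 mouse stood far from the others (the gap to its nearest neighbour against the whole range, by Dixon's critical values); chance flags about 1 in 20. For 4 of the 5 members this was mouse 1: Mrpl30 at −0.84 against −0.42 for the next lowest, Mrps16 at −0.87 against −0.41, Tomm20 at −1.401 against −0.77, and Mrpl15 nearest to 0 at −0.11 against −0.31. Mrpl37 stood nearest to 0 in mouse 5, at −0.21 against −0.399 for the next. Citrate synthase, Cs, was above 0 in mouse 1, at 0.1, and at most −0.44 in the other mice. Mrpl30, Mrps16, Tomm20 and Mrpl37 stayed past the threshold whichever mouse was left out, and Mrpl15 and Cs did not.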

How the results depend on the processing

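No paired analysis was possible because there is 1 group. Of the 50 calls among members, 37 held whichever mouse was left out. Over those 5 settings the members past the threshold numbered 39 to 49, 32 to 41 below and 7 to 9 above 0, and all genes past it 4106 to 4616 (members 48.8% to 61.3%, all genes 40.7% to 45.8%); small subunit genes 8 to 12; other import genes 11 to 16. Counting the pool as a control mouse left 513 of all genes, 6 members (6 below, 0 above), 3 large subunit, 0 small subunit, 3 Timm, 0 Tomm, 1 other import and 1 other translation gene. With at least 1.2-fold required the counts were 1847, 18 (14 below, 4 above), 10, 2, 4 and, for the last 2 lists, 4 and 5; Tomm genes stayed within 1.5 times. With a plain one-sample test 8 small subunit and 11 other import genes passed, and 15 members lost the call. Filter, centring, scaling, feature and symbol settings kept every count of calls within 1.5 times, and the members' median moved by less than its SD between mice. No called member changed sides. Among members without a call, leaving out 1 mouse turned 7, with means ranging over the mice left out from −0.0605 to 0.0648 for Mrpl39, −0.0025 to 0.101 for Mrpl45, −0.044 to 0.0825 for Mrps22, −0.171 to 0.0198 for Mrps5, −0.0867 to 0.245 for Mrps7, −0.0247 to 0.161 for Tomm20l and −0.0945 to 0.0015 for Tomm6. The cause of these changes was not tested. Signal over background is unknown.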
